A study of Homo sapiens with 2 samples.

Results

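DEAD box and DEAH box proteins are RNA helicases named after a short run of amino acids in the motif that binds and hydrolyses ATP. DEAD box enzymes pry apart short RNA duplexes locally, whereas DEAH box enzymes pull on a single strand and move along it. Most steps in the life of an RNA use at least 1 of them, from assembly of the ribosome and the spliceosome to export, translation and decay. The genes described here were the mRNA rows on the autosomes or X whose symbol begins with DDX or DHX followed by a digit. There were 52 such genes among 40205 rows of the deposited table, after 4 further rows with such symbols were left out by the selection rule (1 on the Y chromosome and 3 excepted by symbol).

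RNA came from RKO, an established human colorectal carcinoma cell line, transfected with a non-targeting control siRNA (siNC) or with an siRNA against hnRNPU (sihnRNPU). hnRNPU, also called scaffold attachment factor A, is a nuclear protein that binds RNA and chromatin. The comparison asked how mRNA levels differed after hnRNPU knockdown. With 1 library per group there was no replicate spread to test against, and every statement of a higher or lower level compares 1 library with 1 other. No dose, time after transfection or siRNA sequence is given in the sources used here.

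Read from the steps between low values, depth was 31801650 reads for the control siRNA and 39807025 for the hnRNPU siRNA (ratio 1.25). HNRNPU stood at 239 FPKM (fragments per kilobase, scaled to library depth) in the control library and 75.4 FPKM in the knockdown library. Of 9 epithelial and colon markers, 4 had a mean of at least 1 FPKM, while CDH1, KRT20, LGR5 and MUC2 were listed at 0 in both libraries. The 9 summed to 111 FPKM in the control library and 103 FPKM in the knockdown library. Markers of other cell types were near absent, with a highest value of 0.557 FPKM among 7 genes of fibroblasts and muscle and 0.0152 FPKM among 5 of blood, and 0 for 5 neural and hepatic genes.

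Of the 52 helicase genes, 48 had a mean of at least 1 FPKM. The other 4 are germ line helicases: DDX43 and DDX53 were listed at 0 in both libraries, and DDX4 and DDX25 had 1 read each in the knockdown library and none in the control. At these depths 3 reads on a gene of 2000 bases would be 0.0472 FPKM in the control library and 0.0377 FPKM in the knockdown library. The 48 measured mRNAs rested on 246 to 39134 recovered reads per library. DDX5 was the most abundant, with a mean of 328 FPKM, followed by DDX21 at 175, DDX3X at 164, DHX9 at 116 and DHX15 at 105 FPKM. All 52 together made up 0.623% of the FPKM sum of mRNA rows after control siRNA and 0.676% after hnRNPU siRNA.

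**Figure D1:**
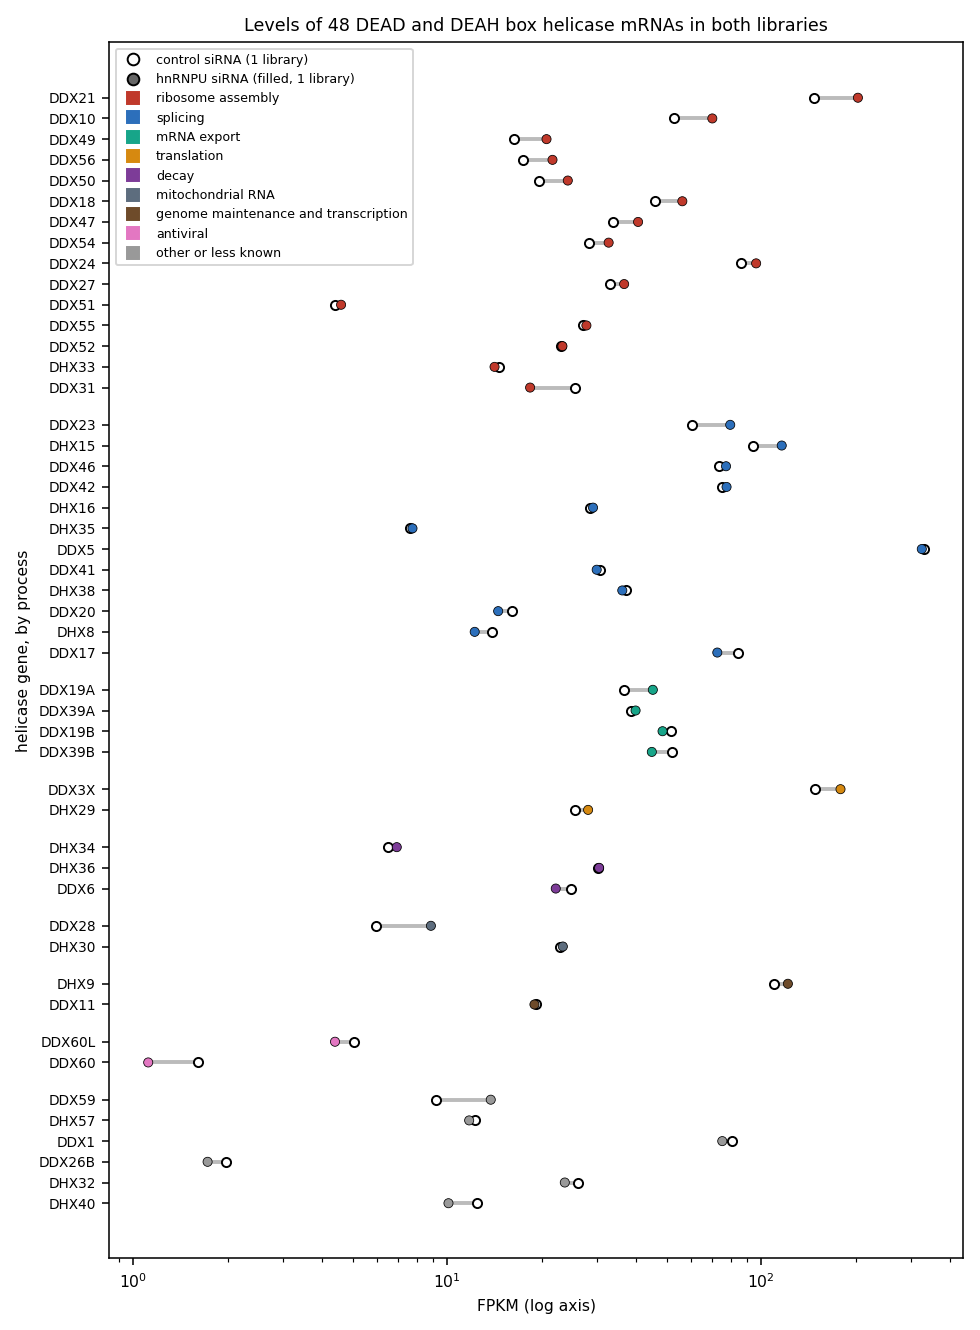
FPKM (log axis) of the 48 measured helicase mRNAs, 1 row per gene, grouped by process. Open circles are the control siRNA library, filled circles the hnRNPU siRNA library, 1 library each, and a grey line joins the same gene. DDX5 lies farthest to the right at 331 and 325 FPKM, and DDX60 farthest to the left at 1.61 and 1.12 FPKM.

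The helicases as a family differed little between the libraries, and no member reached a 2-fold difference, a log2 ratio of 1 in size, where 0.203% of 7407 mRNAs were that much higher and 0.621% that much lower. The log2 ratio of (FPKM + 1), knockdown over control, had a median of 0.03 over the 48 members, against 0.00 over 10184 mRNAs with the same minimum level. The ratio was above 0 in 29 of 48 members (60.4%) and in 50.4% of those mRNAs. It lay within 0.25 of 0 in 32 of 48 members (66.7%), beside 61.0% of the mRNAs. At a log2 ratio of at least 0.5 with 5 FPKM in the higher library, 2 of 45 members were higher (4.44%), where 5.76% of 7407 mRNAs were, and 0 of 45 were lower, where 5.68% of the mRNAs were. Both shares are near or under the background, so these counts are no result about the family. With 1 library per group, no p-value stands beside them, and in RNA from whole cultures fewer cells with a transcript and less of it per cell cannot be told apart.

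Within the family the ribosome assembly helicases had a higher median than the rest. These enzymes work in the nucleolus, where they open and rearrange duplexes between precursor rRNA, small nucleolar RNAs and assembly factors. Of the 15 members of this group, 13 had a log2 ratio above 0, and the median was 0.20. The other 33 measured helicases had a median of -0.01, with 16 above 0. Among them, the 2 translation helicases had a median of 0.20 and the 2 mitochondrial RNA helicases one of 0.27. A median of this size was therefore not confined to ribosome assembly, although each of those medians is the midpoint of 2 genes. The mitochondrial one lies between DDX28 (0.51) and DHX30 (0.03). Summed over the 15 genes, the level was 575 FPKM in the control library and 691 FPKM in the knockdown library, a ratio of 1.20. At a smaller difference, a log2 ratio of 0.25 chosen after the values were seen, 7 of the 14 ribosome assembly helicases with 5 FPKM were higher (50.0%) and 1 was lower (7.14%). Across all mRNAs the same rule gave 23.0% higher and 17.6% lower. Across all 45 members it gave 13 higher and 2 lower.

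DDX21, a nucleolar helicase that takes part in rRNA transcription and processing, led the group. It stood at 147 FPKM in the control library and 203 FPKM in the knockdown library. Its log2 ratio was 0.46, and its FPKM ratio of 1.38 had an exact 95% counting interval of 1.36 to 1.40. Such intervals come from the numbers of reads, cover counting error only, and do not contain the variation between cultures. DDX21 lies on chromosome 10, positions 70716196 to 70744825 of GRCh37 on the plus strand, next to its paralogue DDX50 at positions 70665982 to 70706603 on the same strand. DDX50 was less abundant, at 19.6 and 24.2 FPKM, with an FPKM ratio of 1.24 and an interval of 1.16 to 1.32. Both neighbours were therefore higher in the knockdown library. The reads of DDX50 were taken as divided between genes, so its level is uncertain and its interval approximate. DDX21 made up 25.6% of the summed level of the group after control siRNA and 29.5% after hnRNPU siRNA. Without it the sums were 428 and 487 FPKM.

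DDX10, the human relative of a yeast helicase of small subunit assembly, stood at 52.7 FPKM in the control library and 69.9 FPKM in the knockdown library. Its FPKM ratio was 1.33 (interval 1.28 to 1.37). DDX18, which is related to a yeast helicase of large subunit assembly, stood at 45.8 and 56.1 FPKM, a ratio of 1.22 (1.18 to 1.27). These abundant members thus differed in the same direction as DDX21. DDX49 stood at 16.3 and 20.7 FPKM, a ratio of 1.27 (1.17 to 1.38). DDX56 stood at 17.4 and 21.7 FPKM, a ratio of 1.24 (1.17 to 1.32). DDX47 stood at 33.8 and 40.6 FPKM, a ratio of 1.20 (1.13 to 1.27). DDX49, DDX56 and DDX47 all have yeast counterparts in rRNA processing.

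Smaller differences in the same direction were found for DDX54 (28.4 and 32.7 FPKM), DDX24 (86.2 and 96.5 FPKM) and DDX27 (33.1 and 36.6 FPKM), with FPKM ratios of 1.15, 1.12 and 1.11. Over all 48 members, 20 counting intervals lay above 1, 13 lay below it and 15 contained it. The share over all mRNAs was not computed, so such counts are no result about a group. Of the 15 intervals of the ribosome assembly group, 10 lay above 1, 1 lay below it and 4 contained it. The 4 were those of DDX51, DDX55, DDX52 and DHX33, whose FPKM ratios ran from 0.965 for DHX33 to 1.05 for DDX51. DHX33, a DEAH box helicase of rDNA transcription that also acts in translation initiation, was 1 of the 2 members of the group with a log2 ratio under 0, at -0.05.

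DDX31 was the exception in the group and the lowest of all 48 helicases. It is the relative of a yeast helicase of large subunit assembly and maps to the minus strand of chromosome 9 at 135468384 to 135545061 (GRCh37). It stood at 25.5 FPKM in the control library and 18.4 FPKM in the knockdown library. Its log2 ratio was -0.45, and its FPKM ratio of 0.720 had an interval of 0.687 to 0.756.

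**Figure D2:**
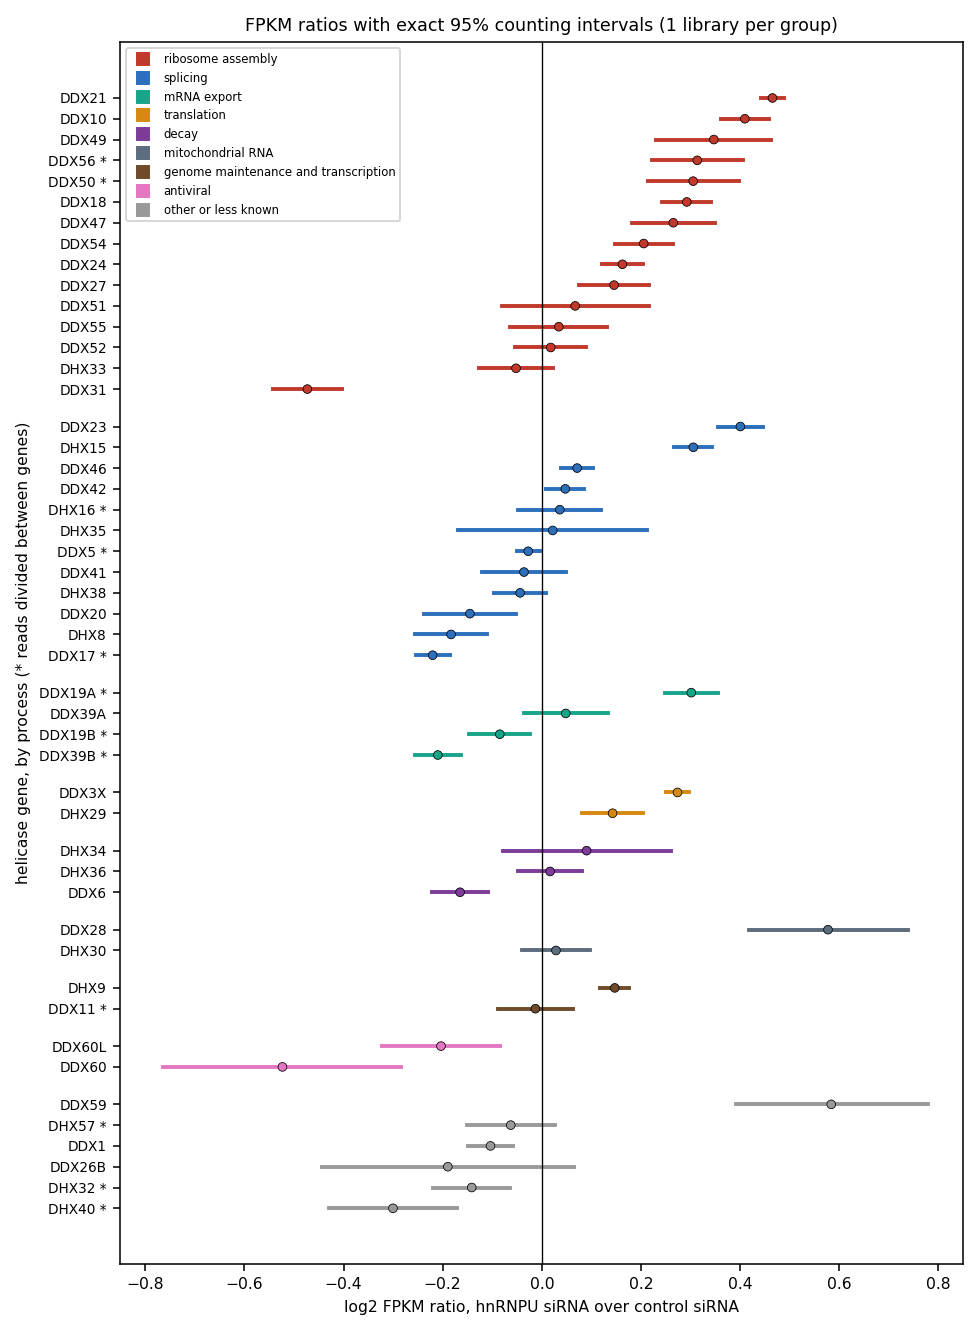
log2 FPKM ratio (no pseudocount) of the 48 helicase mRNAs, hnRNPU siRNA over control siRNA, 1 library each, grouped by process. Points are ratios, bars are exact 95% counting intervals, and stars mark genes whose reads were divided between genes. In the ribosome assembly group 10 bars lie to the right of 0 and 1, DDX31, to the left, while the splicing group has 4 on each side. No such count was made over all mRNAs.

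The splicing helicases, which drive the spliceosome from one conformation to the next, were centred on 0. Their median log2 ratio was 0.00 over 12 members, 6 above 0 and 6 below. Of their counting intervals, 4 lay above 1, 4 below it and 4 contained it, with no share of all mRNAs to set beside these counts. Summed over the 12 genes the level was 853 FPKM in the control library and 879 FPKM in the knockdown library. At a log2 ratio of 0.25, 2 of 12 were higher (16.7%) and 0 of 12 lower, against 23.0% and 17.6% of all mRNAs.

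The 2 splicing members that stood higher were DDX23 and DHX15. DDX23 is the helicase of the U5 particle that lets the U1 particle leave the splice site. It stood at 60.4 FPKM in the control library and 79.8 FPKM in the knockdown library, an FPKM ratio of 1.32 (interval 1.28 to 1.36). DHX15 takes the spent spliceosome apart and also has a role in ribosome assembly. It stood at 94.2 and 116 FPKM, a ratio of 1.24 (1.20 to 1.27). Counted with the ribosome assembly group, DHX15 raised that group to 14 of 16 above 0 with a median of 0.23.

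The helicases that act with the U2 particle at the branch site were close to even. DDX46 stood at 73.6 and 77.3 FPKM (ratio 1.05, interval 1.03 to 1.07) and DDX42 at 75.1 and 77.6 FPKM (1.03, 1.01 to 1.06). The DEAH box helicases of the catalytic steps were also close to even, with DHX16 at an FPKM ratio of 1.03 and DHX38 at 0.970, both with intervals that contained 1. DHX35 at 1.02 and DDX41 at 0.975, found in the catalytic spliceosome, had intervals that contained 1 as well. DHX8, which releases the spliced mRNA, was lower, at 13.9 FPKM in the control library and 12.2 FPKM in the knockdown library (0.881, 0.838 to 0.926). DDX20, the helicase of the SMN complex that builds spliceosomal particles, stood at 16.1 and 14.5 FPKM (0.904, 0.848 to 0.964).

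DDX5 and DDX17 are close paralogues that act in alternative splicing, transcription and microRNA processing. DDX5 stood at 331 FPKM in the control library and 325 FPKM in the knockdown library, an FPKM ratio of 0.981 (0.965 to 0.997). DDX17 stood at 84.5 and 72.6 FPKM, a ratio of 0.858 (0.838 to 0.879). DDX17 was therefore the lower of the pair in relative terms, and the level of DDX5 over that of DDX17 was 3.92 after control siRNA and 4.48 after hnRNPU siRNA. For both genes the reads were taken as shared out among several genes. Which genes shared them was not determined, so the level of each is uncertain. Their sum was 416 FPKM in the control library and 398 FPKM in the knockdown library.

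**Figure D3:**
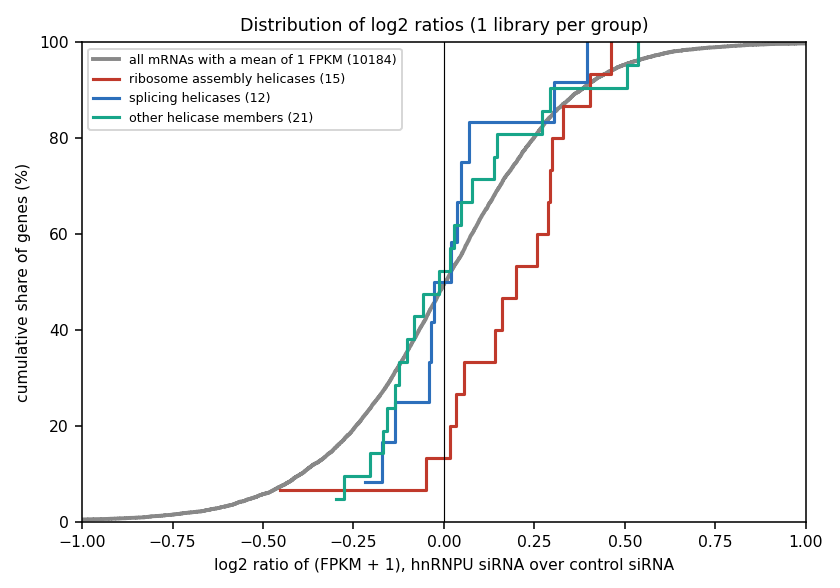
Cumulative share of genes (%) against the log2 ratio of (FPKM + 1), hnRNPU siRNA over control siRNA, 1 library each. Grey is 10184 mRNAs whose mean reached 1 FPKM, red 15 ribosome assembly helicases, blue 12 splicing helicases and green the 21 other measured helicases. The red curve lies to the right of the grey one over most of its range, with a median of 0.20 against 0.00, and the blue curve crosses 0 near the same height as the grey one.

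The mRNA export helicases form 2 paralogue pairs. DDX19A was higher and DDX19B lower in the knockdown library, while DDX39B was lower and the interval of DDX39A held a ratio of 1. DDX19A and DDX19B strip export factors from mRNA at the nuclear pore. DDX19A stood at 36.7 FPKM in the control library and 45.2 FPKM in the knockdown library (FPKM ratio 1.23, interval 1.19 to 1.28), and DDX19B at 51.5 and 48.6 FPKM (0.943, 0.904 to 0.984). DDX39B, the ATPase that loads export factors on mRNA and also acts in early spliceosome assembly, stood at 51.9 and 44.9 FPKM (0.865, 0.837 to 0.893). Its paralogue DDX39A stood at 38.5 and 39.8 FPKM (1.03, 0.975 to 1.10). The pair sum of DDX19A with DDX19B was 88.2 FPKM in the control library and 93.8 FPKM in the knockdown library. That of DDX39A with DDX39B was 90.4 and 84.7 FPKM, so the 2 sums differed in opposite directions. Reads of DDX19A, DDX19B and DDX39B were taken as divided between genes, and which genes shared them was not determined. Their levels, and the opposite directions of DDX19A and DDX19B, are therefore uncertain. A readthrough row on the same strand, ATP6V1G2-DDX39B, was listed at 46.4 and 39.4 FPKM, a log2 ratio of -0.23 beside -0.21 for DDX39B, and the part of shared reads in these values was not tested.

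Both translation helicases were higher in the knockdown library. DDX3X, which helps ribosomes start on mRNAs with structured leaders, stood at 148 FPKM in the control library and 179 FPKM in the knockdown library (FPKM ratio 1.21, interval 1.19 to 1.23). DHX29, which binds the small ribosomal subunit and aids scanning, stood at 25.5 and 28.1 FPKM (1.10, 1.06 to 1.15). The helicases of the eIF4A group, DEAD box proteins with other symbols and so no members here, were also all above 0, with a median log2 ratio of 0.41 over 3 genes. The highest ratio of these was that of the translation factor EIF4A2, at 128 FPKM after control siRNA and 303 FPKM after hnRNPU siRNA, a log2 ratio of 1.24. The lowest ratio was that of EIF4A3 of the exon junction complex, at 39.3 FPKM after control siRNA and 51.2 FPKM after hnRNPU siRNA, a log2 ratio of 0.37.

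The decay helicases did not differ in a common direction. DDX6, a core protein of processing bodies that couples translational repression to decapping, stood at 24.9 FPKM in the control library and 22.2 FPKM in the knockdown library (FPKM ratio 0.892, interval 0.858 to 0.927). DHX36, which unfolds G-quadruplexes and acts in AU-rich element decay, stood at 30.1 and 30.5 FPKM (1.01, 0.967 to 1.06). DHX34, a factor of nonsense-mediated decay, stood at 6.49 and 6.91 FPKM (1.06, 0.947 to 1.20). The intervals of DHX36 and DHX34 contained 1, so a difference was not detectable at this depth.

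The 2 members past a log2 ratio of 0.5 lay outside these groups. DDX59, a helicase gene linked to ciliary disorders, had the highest ratio of the family. It stood at 9.19 FPKM in the control library and 13.8 FPKM in the knockdown library, a log2 ratio of 0.54 and an FPKM ratio of 1.50 (interval 1.31 to 1.72). The gene maps to the minus strand of chromosome 1 at 200613165 to 200639035 (GRCh37). DDX28, a helicase of mitochondrial ribosome assembly, stood at 5.95 and 8.88 FPKM, a log2 ratio of 0.51 and an FPKM ratio of 1.49 (1.34 to 1.67). Its gene, on chromosome 16 at positions 68055177 to 68057770 on the minus strand, overlaps DUS2 on the plus strand, which was listed at 6.95 and 11.6 FPKM, a log2 ratio of 0.66. No source used here says whether reads were counted by strand, so those of DDX28 and DUS2 cannot be told apart. DHX30, the other helicase of mitochondrial RNA granules, was even at 22.9 and 23.4 FPKM (1.02, 0.972 to 1.07).

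**Figure D4:**
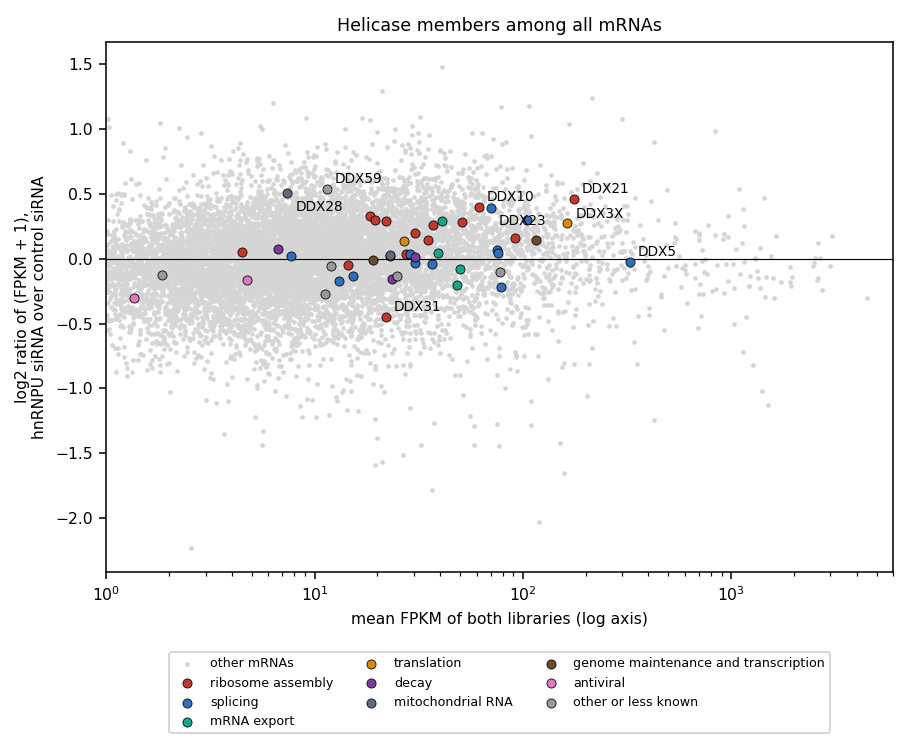
log2 ratio of (FPKM + 1), hnRNPU siRNA over control siRNA, against the mean FPKM of both libraries (log axis), 1 library each. Grey points are mRNAs whose mean reached 1 FPKM and coloured points the 48 helicases by process. DDX59 (0.54) and DDX28 (0.51) are the highest helicases and lie at low levels, DDX21 (0.46) is the highest of the abundant ones, and DDX31 (-0.45) is the lowest.

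DHX9, which unwinds double-stranded RNA and RNA-DNA hybrids, stood at 110.0 FPKM in the control library and 122 FPKM in the knockdown library (FPKM ratio 1.11, interval 1.09 to 1.13). DDX11, a DNA helicase of sister chromatid cohesion, was even at 19.1 and 19.0 FPKM (0.991, 0.940 to 1.04). Its reads were taken as divided between genes, so its level is uncertain and this interval approximate. Both antiviral relatives were lower. DDX60, an interferon-induced protein, stood at 1.61 and 1.12 FPKM (0.696, 0.589 to 0.822), and DDX60L at 5.06 and 4.40 FPKM (0.869, 0.800 to 0.943).

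Of the 6 remaining members, 5 had a log2 ratio under 0, DDX59 being the exception. DDX1, a subunit of the tRNA ligase complex, stood at 80.8 FPKM in the control library and 75.2 FPKM in the knockdown library (FPKM ratio 0.931, interval 0.901 to 0.961). DHX40 was the lowest of them at 12.4 and 10.1 FPKM (0.812, 0.742 to 0.888), followed in log2 ratio by DHX32 at 26.1 and 23.7 FPKM. DHX32 overlaps BCCIP on the other strand, which was listed at 100.5 and 107 FPKM. DHX57 (0.958, 0.900 to 1.02) and DDX26B (0.877, 0.735 to 1.05) had intervals that contained 1. DDX26B is now named INTS6L and was a member by its older symbol only.

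Partner proteins of the helicases, which switch their ATPase on or hold them in complexes, were summarised in the same way. The 20 G-patch proteins, cofactors of DEAH box helicases, had a median log2 ratio of 0.00 with 10 above 0. The highest was GPATCH4, a nucleolar partner of DHX15, at 118 FPKM in the control library and 166 FPKM in the knockdown library (0.49), and the lowest was ZGPAT. The 10 MIF4G-type proteins were listed by type and not limited to partners of the members described here. Their median was 0.13 with 7 above 0, led by EIF4G2 (0.34). The 13 export partners had a median of 0.02 with 7 above 0, and the 6 partners of DDX6 one of 0.04 with 4 above 0. The 4 partners of DDX1 in the tRNA ligase complex had a median of 0.00. Of the helicases of the other families, the 5 measured Ski2-like genes had a median of 0.07 and the 8 Upf1-like genes one of 0.12. None of these lists but the eIF4A group had a median as high as the 0.20 of the ribosome assembly helicases. Within the family, the 2 translation helicases (0.20) and the 2 mitochondrial RNA helicases (0.27) did.

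A short sequence that the choice by symbol did not use was more frequent in helicase promoters than over the promoters of all expressed mRNAs, a difference that was not tested. Promoter sequences of 300 bases, 250 before the start site and 50 from it on, came from RefSeq (GRCh38.p14) and were matched by gene ID for 44 of the 48 measured members, all but DDX49, DDX18, DDX52 and DHX33. The motif CCGGAA, the core of sites bound by ETS factors, was searched on both strands, so TTCCGG counted too. It was in 27 of 44 helicase promoters (61.4%), against 33.7% of the 8454 promoters of mRNAs whose mean level reached 1 FPKM. Without that minimum level the share over mRNA rows was 23.1%, and the 8454 were not matched to the helicases in level. It was in 8 of 11 matched promoters of ribosome assembly helicases (72.7%) and in 8 of 12 of splicing helicases (66.7%). The following stretches of 30 bases are shown because the genes differ in direction and yet hold the same motif. They are written in the direction of transcription, with each copy of the motif or its reverse complement in capitals.
DDX21 (chr10:68956098-68956127, plus strand): ttcctgcttcccCCGGAAgtgccttgctac
DDX50 (chr10:68901255-68901284, plus strand): gcggtgcgtgtcCCGGAAgtgacgcatggc
DDX56 (chr7:44574010-44574039, minus strand): tccgtccgagtaCCGGAAgcctaggccgcc
DDX47 (chr12:12813336-12813365, plus strand): ccgcagacccacTTCCGGagacctcacaca
DDX31 (chr9:132670024-132670053, minus strand): gccgTTCCGGacCCGGAAggggcggtggcg
DHX8 (chr17:43483946-43483975, plus strand): acgcgcgctgacCCGGAAgtgaaagctgga
DDX5 (chr17:64506742-64506771, minus strand): cgagcagcgcacTTCCGGtgagctatttcg

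DDX21, DDX50, DDX56 and DDX47 were higher in the knockdown library, DDX31 and DHX8 lower, and DDX5 nearly even. The 27 members with CCGGAA had a median log2 ratio of 0.04, and the 17 without it one of 0.02. Across mRNAs with a promoter entry the medians were 0.05 with the motif and -0.01 without. The median level was also higher with the motif, at 30.3 FPKM against 23.5 FPKM among the members. Across those mRNAs it was 11.6 FPKM with the motif and 8.95 FPKM without.

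The E-box core CACGTG, a palindrome bound by MYC and MAX, was in 7 of 44 helicase promoters (15.9%), against 11.0% of the 8454. Of the 11 matched ribosome assembly helicases, DDX54 and DDX31 held it. The cyclic AMP response element TGACGTCA, also a palindrome, was in 5 of 44 (11.4%), against 3.61% of the 8454. Its 5 carriers were DDX28, DDX10, DDX19A, DDX51 and DHX36, with log2 ratios of 0.51, 0.40, 0.29, 0.06 and 0.02. Ratios of mRNAs with and without this element were not compared, so these values have no background. The stretches of the carriers with the highest ratios are shown with the element in capitals.
DDX28 (chr16:68023225-68023254, minus strand): gcggcgcgtccgTGACGTCActgatgtgcg
DDX10 (chr11:108664985-108665014, plus strand): ccctccttttccTGACGTCAttggcgcgtg
DDX19A (chr16:70346848-70346877, plus strand): ctgggtgggaacTGACGTCAcctgtgctca
A match is a run of letters and says nothing of binding in these cells. CCAAT, searched on both strands, was in 45.5% of the 44 promoters and in 37.5% of the 8454. The motifs were chosen with the ratios known.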

How the data were processed

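Per the labels' protocols, RKO RNA was isolated with Trizol and sequenced after a Lifetech library protocol. The authors deposited 1 FPKM value per gene and library. The submitters' processing notes name Bowtie and GRCh37. Annotation, counting program and use of strand: not given in the sources used here. Groups were taken from the treatment labels, 1 library each, and 0 other value columns were present.

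Depth was read from short one-piece noncoding genes, in which the most common step of FPKM times length is 1 read (58 genes in the control library, 47 in the knockdown library). Reads and bases of each gene were recovered as the simplest fraction equal to its FPKM times depth, within a relative tolerance of 2e-13. Where the length exceeded 1.3 times the longest GENCODE transcript, reads were taken as divided between genes and scaled down. This held for 12 of the 48 measured members, whose intervals are approximate. They were DDX5, DDX11, DDX17, DDX19A, DDX19B, DDX39B, DDX50, DDX56, DHX16, DHX32, DHX40 and DHX57. Factors common to both numbers cancel, which makes some intervals too wide. FPKM ratios have exact 95% Clopper-Pearson counting intervals. PCR copies are not independent molecules, so these cover counting error only.

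Ratios are log2 of (FPKM + 1), knockdown over control, a scale that understates differences of low genes. Members needed a mean of 1 FPKM to be summarised and 5 FPKM in the higher library to be counted past a log2 ratio of 0.5. Every measured member was described, and the translation and decay members and the 5 highest and 5 lowest ratios got full values. The members, process groups and gene lists were chosen with earlier results of these data known. Process groups follow textbook roles, with 1 group per gene. DDX5, DDX6, DDX26B, DDX39B and DHX16 are listed on alternate scaffolds, and their chromosome was taken from RefSeq through the gene ID. The steps were tested on simulated libraries. Python 3.11.15, pandas 2.3.3 and scipy 1.17.1 were used. Alternatives were other pseudocounts, 3 rescalings, other minimum levels, and members with undivided reads or on listed chromosomes only.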

Additional observations from a re-analysis of the deposited data

Results flagged for a closer look

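Rows with a helicase symbol that are not mRNAs were outside the comparisons above. Of 28 such rows, 16 were at 0 FPKM in both libraries and 5 held only a part of a divided read that rounded to 0, while 4 had more than 3 reads in both, which is above what a count of 0 allows. DDX10P1, a pseudogene row on chromosome 10, was listed at 27.1 FPKM in the control library and 23.3 FPKM in the knockdown library, a log2 ratio of -0.21 where DDX10 itself had 0.40. Its reads were divided between genes, whereas those of DDX10 were whole. DDX12P, which is nearly identical to DDX11, was listed at 5.90 FPKM in the control library and 4.94 FPKM in the knockdown library, also with divided reads. DDX11L2, also with divided reads, was listed at 0.233 FPKM in the control library and 0.162 FPKM in the knockdown library. Its 10 and 9 reads are numbers scaled down for that division. DDX11-AS1 was listed at 0.263 and 0.272 FPKM, on 17 and 22 reads.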

How the results depend on the processing

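No paired analysis was possible because only 1 library was made per group. The median log2 ratio of the ribosome assembly helicases ran from 0.16 to 0.23 over 12 alternatives. Of these, rescaling by the median ratio gave the lowest share of its members above 0, 11 of 15. The medians of all members (-0.00 to 0.06) and of the splicing helicases (-0.04 to 0.04) changed sign under some alternatives. A counting error of these medians was not computed. Rescaling by the sum, the median ratio or the upper quartile shifted log2 FPKM ratios by 0.03, -0.04 or -0.01, and those of FPKM + 1 by less in low members. The count of members higher by a log2 ratio of 0.5, 2, was 0 at a pseudocount of 5 FPKM, 0 after rescaling by the median ratio, 1 after rescaling by the upper quartile, 1 at a minimum of 10 FPKM, 0 at 20 FPKM and 13 at a log2 ratio of 0.25. The count lower, 0, was 2 at a log2 ratio of 0.25. These shifts follow from the larger constant, the factor, the smaller number of genes or the lower limit itself, since DDX28 and DDX59 lie near 0.5. After rescaling by the median ratio 23 of 48 members were above 0, against 29 as deposited. The log2 ratio of HNRNPU, -1.65, became -1.61 with 5 FPKM added, -1.62 once sums were made equal and -1.69 once the median ratio was. Of 288 member values under an alternative, 275 stayed within the counting error of that member and 13 moved beyond it. Each rescaling applied 1 factor to all members, so there this split mainly reflects how many reads a member had. Under these alternatives 8 members, none with a ratio above 0.035 in size, changed sign. Limiting members to listed chromosomes and the log2 limit of 0.25 were chosen after the data were seen. Depth limited low members most, such as DDX26B with 246 and 270 reads.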
